A study of Mus musculus with 6 samples.

Results

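The antioxidant and redox defense genes described here are 42 genes chosen by symbol. They encode superoxide dismutases, catalase, glutathione peroxidases, peroxiredoxins, the thioredoxin system, the enzymes of glutathione synthesis, glutaredoxins, glutathione transferases, the NRF2 regulators, and the quinone, heme and methionine sulfoxide enzymes. All 42 were found among the 60193 genes listed for the study, of which 53700 carried Ensembl identifiers. The study asked how oocyte mRNA differs by the site of maturation in mice of advanced reproductive age. In both groups the donors were ICR females aged 42 to 45 weeks that had been primed with PMSG, a gonadotropin that stimulates follicle growth. The IVM group (3 samples) came from immature oocytes that were stripped of cumulus cells and then kept in M16 medium for 12 h. The IVO group (3 samples) had matured in the mouse after hCG, which triggers ovulation, and was taken from the oviduct 14 h later, when hyaluronidase removed the cumulus cells. Each sample was a pool of 20 MII oocytes (arrested at the second meiotic metaphase) from 3 mice, so differences between single oocytes or mice were averaged, and culture, hormone and time of collection cannot be told apart as parts of the comparison.

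Levels are the authors' FPKM, fragments divided by the transcript's length and by the size of the library. FPKM divides by length, so levels of different genes can be set side by side, but only roughly. A trend with gene length between the groups can remain, and its removal moved some results below. The adenine tails of the mRNAs were not measured, so their part in the levels was not tested. The log2FC is the difference IVO minus IVM of log2(FPKM + 1), and it understates changes at low FPKM. A gene with a mean of at least 1 FPKM over the 6 samples was tested with limma among 18818 genes. A DEG had an adjusted p under 0.05 and a log2FC of at least 1 in size, and a gene with an adjusted p under 0.05 alone was counted separately. In pools, fewer cells of a type and less RNA per cell cannot be told apart. Samples are numbered as in their titles.

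The depth, inferred from how low FPKM values are spaced, lay between 16400000 and 19100000 fragments in the IVM pools and between 17700000 and 18000000 in the IVO pools. In a transcript of 1500 bases, 3 fragments were worth 0.121 to 0.142 FPKM, a floor for counting error only. The mean fragment length, inferred in the same way, was 195 to 210 bases in the IVM and 240 to 260 bases in the IVO pools. The FPKM of all genes summed to 1826738 to 2111776 in the IVM and 1560813 to 1643682 in the IVO pools. Neither range overlapped between the groups, and the part of these differences in the results below was not tested. The median log2FC of all tested genes was -0.30, and 66.0% of them had a negative log2FC. All 10 oocyte markers were present in each sample. They summed to between 4969 and 6779 FPKM in the IVM pools and between 2511 and 3004 FPKM in the IVO pools. Of the 10, 8 were lower in every IVO sample than in any IVM sample, against 32.6% of all tested genes. Of 16 cumulus and granulosa markers, 14 were below 1 FPKM in all 6 samples and 2 of these, Amh and Areg, were listed at 0 throughout. These 14 summed to between 1.01 and 1.95 FPKM in the IVM pools and between 1.91 and 2.36 FPKM in the IVO pools. Among them Has2, Ptx3 and Tnfaip6 were higher in every IVO sample than in any IVM sample. That is 3 of the 16, and 0 of the 16 were wholly lower. The share of all tested genes, 9.62%, is of genes averaging at least 1 FPKM, which these 3 did not reach. Ptx3 lay near or below the floor, at 0 to 0.03 FPKM in IVM and 0.07 to 0.17 FPKM in IVO samples. The markers of this list above 1 FPKM were Cyp19a1 (16.3 to 23.1 FPKM) and Fshr (6.14 to 16.3 FPKM). Of 11 blood, stroma and oviduct markers, 6 were below 1 FPKM throughout, with Pax8 listed at 0, and the list summed to between 8.20 and 10.2 FPKM in the IVM pools and between 9.35 and 16.2 FPKM in the IVO pools. In that list the hemoglobin gene Hbb-bs was at 2.33 and 2.04 FPKM in IVO samples 2 and 3 and at 0 in the others. The part of these other cells in the results below was not tested.

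Superoxide dismutases turn superoxide into hydrogen peroxide, which catalase, the glutathione peroxidases and the peroxiredoxins reduce to water. The peroxidases draw their electrons from thioredoxin or glutathione, which are in turn reduced with NADPH, and the transcription factor NRF2 (Nfe2l2) drives many of these genes unless KEAP1 holds it back. A fully grown oocyte is largely silent in transcription, so its mRNA is mostly a stored supply that is translated, polyadenylated or degraded during maturation.

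A few antioxidant mRNAs were among the most abundant in the oocyte. With FPKM as deposited, those that passed the test were lower in IVO, while with quantile normalization some others passed as higher. The members together made up 0.376% to 0.454% of all FPKM in the IVM pools and 0.402% to 0.503% in the IVO pools. Prdx1, a cytosolic peroxiredoxin, made up 53.8% to 65.2% of the members' summed FPKM and ranked 35 among the Ensembl genes by mean FPKM. The microsomal glutathione transferase gene Mgst3 ranked 235, Prdx2 405 and the thioredoxin inhibitor gene Txnip 728. At the other end, 9 members had a mean below 1 FPKM and were not tested, namely Sod3, Cat, Gpx7, Gpx8, Srxn1, Gsr, Gstm1, Keap1 and Hmox1.

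**Figure D1:**
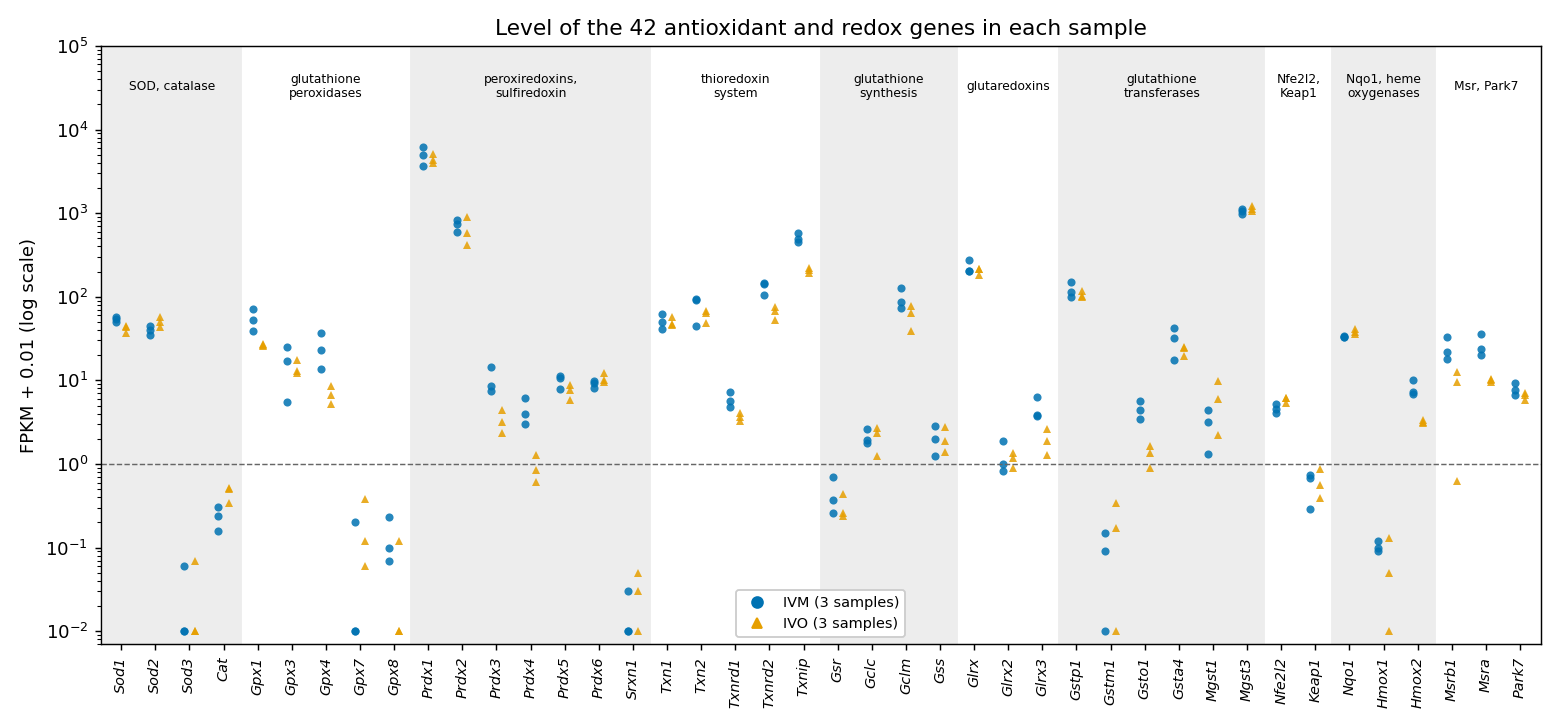
FPKM of the 42 members in each sample, grouped by role, on a log axis after adding 0.01 so that values of 0 can be drawn. Circles are the 3 IVM and triangles the 3 IVO samples, and the dashed line marks 1 FPKM. Prdx1, Mgst3 and Prdx2 lie above all other members in the IVO samples and, with Txnip, in the IVM samples, and 9 members have means below the line.

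Of the 33 members tested, 7 were DEGs lower in IVO (21.2%, against 17.9% of all tested genes), and 0 were DEGs higher in IVO (against 0.606%). At an adjusted p under 0.05 alone, 9 members were lower (27.3%, against 21.5%) and 0 were higher (against 1.87%) by limma. At an unadjusted p under 0.05, 12 members were lower (against 31.4% of all tested genes) and 0 higher (against 5.56%). The 3 IVO values lay wholly below the 3 IVM values in 13 tested members (39.4%, against 32.6%) and wholly above in 2 (6.1%, against 9.62%). These shares were near those of all tested genes. The log2FC was negative in 25 members and positive in 8, and its median was -0.29 beside -0.30 over all tested genes.

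The sign of the family's median depended on the scaling of the libraries. The median log2FC of the members was 0.030 with median-ratio scaling, 0.045 with libraries brought to the same sum and 0.15 with quantile normalization, where that of all tested genes was -0.04, -0.03 and 0.17. The number of DEGs lower in IVO fell from 7 to 3 (of all genes 11.3%), 3 (11.3%) and 1 (8.4%) under these scalings. At an adjusted p under 0.05, quantile normalization gave 2 members lower (10.7%) and 5 higher (14.8%), in place of 9 lower and 0 higher. The 5 were Sod2, Prdx6, Nfe2l2, Nqo1 and Mgst3, of which Mgst3 was also higher with libraries of the same sum (1 member, against 5.76% of all genes). The 9 members lower as deposited kept a negative log2FC under each of these scalings. Of them, Txnip and Prdx4 passed with quantile normalization, and the other 7 had an adjusted p of 0.0533 to 0.146.

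**Figure D2:**
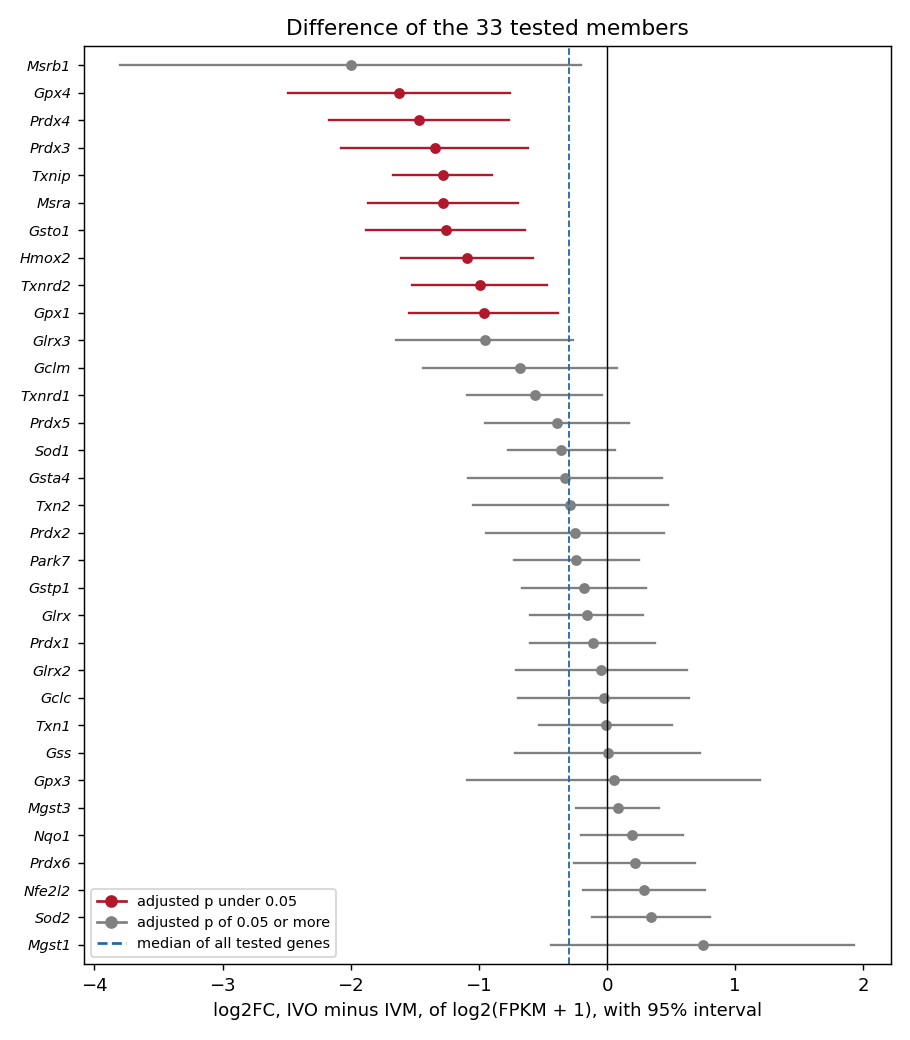
The log2FC of the 33 tested members (IVO minus IVM, of log2(FPKM + 1)), with 95% intervals from limma, ordered by size. Red marks the 9 members with an adjusted p under 0.05, all of them lower in IVO, and the dashed line is the median of all tested genes at -0.30.

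Superoxide dismutases and catalase. Neither dismutase tested passed the threshold, although both were well expressed. Sod1, the cytosolic copper-zinc enzyme, had the highest mean FPKM of its class, with 54.3, 49.4 and 57.2 FPKM in the IVM and 44.7, 43.6 and 37.1 FPKM in the IVO samples. Every IVO value was the lower (log2FC -0.36, 95% interval -0.77 to 0.06, adjusted p = 0.194). Sod2, the mitochondrial manganese enzyme, averaged 39.5 ± 4.92 FPKM in IVM and 50.5 ± 6.998 FPKM in IVO samples (SD, n = 3) (log2FC 0.34, interval -0.12 to 0.81). The FPKM ratio of Sod1 to Sod2 within a library is unchanged by a factor applied to the whole library. It was 1.57, 1.25 and 1.29 in the IVM and 1.02, 0.756 and 0.737 in the IVO samples, without overlap. Quantile normalization and removal of the trend with gene length are not such factors. With the length trend removed, the log2FC was 0.17 for Sod1 (641 bases) and 0.53 for Sod2 (5861 bases).

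Catalase mRNA (Cat, the peroxisomal enzyme that splits hydrogen peroxide) was scarce in both groups. Its FPKM was 0.23, 0.15 and 0.30 in the IVM and 0.33, 0.49 and 0.51 in the IVO samples, or about 6.9 to 21.4 fragments in a sample. The groups did not overlap, but the gene was below the level tested. Sod3, the secreted dismutase, was listed at 0 in 4 of the 6 samples and reached 0.06 FPKM at most.

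Glutathione peroxidases. Of the 3 members of this class that were tested, Gpx1 and Gpx4 passed and were lower in IVO, and Gpx3 did not pass. Gpx4, whose enzyme reduces lipid hydroperoxides inside membranes, had 36.8, 13.6 and 23.4 FPKM in the IVM and 8.64, 6.60 and 5.27 FPKM in the IVO samples. It was a DEG (log2FC -1.62, SE 0.37, adjusted p = 0.0202), with the most negative log2FC of the members that passed. The IVM values spread more widely than the IVO values. The adjusted p was 0.0563 to 0.0699 when IVM sample 1 or 3 or IVO sample 2 or 3 was left out. Gpx4 passed in 9 of 17 alternatives. Gpx4 has 3 near-identical copies elsewhere in the genome, of which 2 pseudogenes are in the table, at 0.52 FPKM in IVM sample 1 and otherwise at 0.

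Gpx1, the cytosolic and mitochondrial enzyme and the most abundant of the class per length, had 71.4, 38.8 and 52.3 FPKM in the IVM and 26.3, 25.8 and 27.5 FPKM in the IVO samples. The groups did not overlap (log2FC -0.96, SE 0.25, adjusted p = 0.0309). The adjusted p was 0.0663 to 0.0869 when any sample but IVM sample 2 was left out. Gpx1 passed in 5 of 17 alternatives, with an adjusted p of 0.0963, 0.123 and 0.146 under median-ratio, same-sum and quantile scaling. Gpx3, the secreted enzyme, averaged 15.8 ± 9.69 FPKM in IVM and 14.2 ± 2.71 FPKM in IVO samples (SD, n = 3). Its log2FC was 0.05 with an interval of -1.09 to 1.19, so the data did not fix its direction. Within libraries, the ratio of Gpx1 to Gpx4 was 1.94, 2.86 and 2.24 in the IVM and 3.04, 3.91 and 5.21 in the IVO samples, so that Gpx4 was the lower in relation to Gpx1 in each IVO sample. Gpx7 and Gpx8, which work in the endoplasmic reticulum, stayed at or below 0.37 and 0.22 FPKM. Gpx6, a glutathione peroxidase outside the 42, was singled out after its values were seen, with 92.2, 123.5 and 74.7 FPKM in the IVM and 48.0, 42.0 and 50.2 FPKM in the IVO samples. The gene was a DEG (log2FC -1.01, SE 0.23, adjusted p = 0.0197). Its adjusted p was 0.0530 to 0.0669 when IVM sample 1 or IVO sample 1 or 2 was left out. Gpx6 passed in 8 of 17 alternatives, with an adjusted p of 0.0862, 0.0601 and 0.123 under median-ratio, same-sum and quantile scaling.

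Gpx1, Gpx3 and Gpx4 belong to the 6 members whose coding sequence holds an in-frame TGA read as selenocysteine, the residue that carries out their chemistry. The others are Txnrd1, Txnrd2 and Msrb1. The codon with 12 bases on each side is shown for all 6 because it is the feature they share, read from GRCm39 on the plus strand with its position in the GENCODE annotation and with the TGA in capitals.
Gpx1 (chr9:108216650-108216652, exon 1 of 2, codon 47 of 201): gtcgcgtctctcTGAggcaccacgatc
Gpx3 (chr11:54798082-54798084, exon 2 of 5, codon 73 of 226): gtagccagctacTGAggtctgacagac
Gpx4 (chr10:79890571-79890573, exon 3 of 7, codon 73 of 197): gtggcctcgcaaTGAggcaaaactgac
Txnrd1 (chr10:82731871-82731873, exon 14 of 14, codon 498 of 499): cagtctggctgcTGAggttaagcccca
Txnrd2 (chr16:18296522-18296524, exon 17 of 18, codon 526 of 527): gtgactggttgcTGAggctaagtcacc
Msrb1 (chr17:24959132-24959134, exon 3 of 4, codon 95 of 116): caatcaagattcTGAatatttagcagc

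In Txnrd1 and Txnrd2 the codon is the last but one, in Msrb1 it has 21 codons after it, and in the glutathione peroxidases it lies in the first part of the frame. Of these 6 members, 5 had all IVO values below all IVM values (83.3%, against 32.6% of all tested genes), and 3 passed, lower, at an adjusted p under 0.05 (against 21.5%). Their median log2FC was -0.98, beside -0.24 for the other 27 tested members. The set of 6 was formed after their values were known, so it carries no test.

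Of 18 further genes for selenoproteins and for selenocysteine insertion, 13 were tested. Of these, 1 was a DEG higher in IVO (against 0.606% of all tested genes) and 0 were DEGs lower by limma (against 17.9%). At an adjusted p under 0.05, 1 was lower (against 21.5%) and 1 higher (against 1.87%), and at an unadjusted p under 0.05, 1 was lower (against 31.4%) and 2 higher (against 5.56%). The IVO values lay wholly above the IVM values in 3 (23.1%, against 9.62%) and wholly below in 1 (7.7%, against 32.6%). Trnau1ap, whose protein associates with the selenocysteine transfer RNA, had 18.9, 18.4 and 28.03 FPKM in the IVM and 52.2, 50.1 and 39.2 FPKM in the IVO samples (log2FC 1.09, SE 0.23, adjusted p = 0.0169). Its adjusted p was 0.0533 to 0.0594 when sample 1 or 2 of either group was left out. Sephs1, a selenophosphate synthetase homologue, had 811, 490 and 717 FPKM in the IVM and 370, 414 and 335 FPKM in the IVO samples (log2FC -0.82, SE 0.22, adjusted p = 0.0350). It passed in 4 of 17 alternatives, and without any sample but IVM sample 2 its adjusted p was 0.0663 to 0.1001. The log2FC of this list was positive in 9 genes and negative in 4, where 66.0% of all tested genes were negative, with a median of 0.17.

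Peroxiredoxins. The abundant cytosolic peroxiredoxins did not pass the test, while Prdx3 and Prdx4 were lower in IVO. Prdx1 had 4949, 6179 and 3692 FPKM in the IVM and 4381, 5119 and 4003 FPKM in the IVO samples. The groups overlapped (log2FC -0.11, interval -0.60 to 0.38), and the sign turned with each of the other scalings. Prdx2, also cytosolic, averaged 718 ± 119 FPKM in IVM and 630 ± 250 FPKM in IVO samples (SD, n = 3), with a log2FC of -0.25.

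Prdx3, the mitochondrial peroxiredoxin, had 14.5, 7.43 and 8.60 FPKM in the IVM and 2.34, 3.21 and 4.43 FPKM in the IVO samples. It was a DEG (log2FC -1.35, SE 0.31, adjusted p = 0.0215) and passed in 7 of 17 alternatives. Its adjusted p was 0.0552 to 0.0675 when IVM sample 1 or 3 or IVO sample 1 or 2 was left out. Prdx4, the peroxiredoxin of the endoplasmic reticulum, had 6.07, 2.96 and 3.97 FPKM in the IVM and 0.83, 0.60 and 1.26 FPKM in the IVO samples. It was a DEG as well (log2FC -1.46, SE 0.30, adjusted p = 0.0141), and it passed in all 6 fits that left out a sample. Its IVO values rest on only 7.9 to 16.7 fragments in a sample by the inferred depth.

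Within libraries, the ratios of Prdx1 to Prdx3 and to Prdx4 differed by group. They restate the lower Prdx3 and Prdx4 beside an overlapping Prdx1 and are no separate test. Per length there was 342, 832 and 429 times as much Prdx1 as Prdx3 in the IVM and 1872, 1595 and 904 times as much in the IVO samples, without overlap. The ratio of Prdx1 to Prdx4 was 815 to 2087 in the IVM and 3177 to 8532 in the IVO samples. Prdx5, found in mitochondria, peroxisomes and the cytosol, averaged 9.98 ± 1.80 and 7.39 ± 1.5 FPKM in IVM and IVO samples, and Prdx6, which uses a single catalytic cysteine, 8.97 ± 0.88 and 10.6 ± 1.52 FPKM (SD, n = 3). Neither passed the test, with log2FC of -0.39 and 0.22. Srxn1, whose enzyme repairs overoxidised peroxiredoxins, was at 0.04 FPKM or below in all samples. Near-identical copies of Prdx1, Prdx2, Sod1, Glrx3 and Gstm1 that are in the table, all pseudogenes, did not exceed 0.88 FPKM.

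Thioredoxin system. The gene for the inhibitor of thioredoxin was lower in IVO, by more FPKM than any other member that passed. The gene for the mitochondrial reductase was also lower but passed the adjusted p alone. Txnip, whose protein binds reduced thioredoxin and blocks it, had 451, 494 and 584 FPKM in the IVM and 194, 212 and 219 FPKM in the IVO samples. The values within each group lay close together, and the mean of IVO was 0.408 of that of IVM (log2FC -1.28, SE 0.16, adjusted p = 0.00309). Txnip was the one member with an adjusted p under 0.05 in each of the 17 alternatives, in which its log2FC ranged from -1.37 to -0.78. Under the 3 scalings it was -0.96, -0.94 and -0.78, short of the fold threshold. The gene lies on chromosome 3 of GRCm39 from 96465267 to 96469201, on the plus strand, and its canonical transcript has 8 exons.

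Thioredoxin itself, the cytosolic Txn1, averaged 51.2 ± 11.2 FPKM in IVM and 50.3 ± 6.15 FPKM in IVO samples (SD, n = 3), with a log2FC of -0.01 and an interval of -0.53 to 0.51. The ratio of Txnip to Txn1 is not moved by a factor applied to a whole library. It was 11.1, 7.85 and 11.7 in the IVM and 4.23, 3.70 and 4.57 in the IVO samples. The lowest IVM ratio was well above the highest IVO ratio.

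Txnrd2, the mitochondrial thioredoxin reductase, had 145, 141 and 104 FPKM in the IVM and 66.7, 52.0 and 76.3 FPKM in the IVO samples. It passed the adjusted p but lay just short of the fold threshold (log2FC -0.99, SE 0.22, adjusted p = 0.0200). When sample 1 or 2 of either group was left out, its adjusted p was 0.0525 to 0.0671. It passed in 7 of 17 alternatives, with an adjusted p of 0.0861, 0.0603 and 0.130 under median-ratio, same-sum and quantile scaling. Its substrate, the mitochondrial thioredoxin Txn2, averaged 76.8 ± 28.1 and 60.1 ± 10.5 FPKM in IVM and IVO samples (SD, n = 3). The log2FC of Txn2 was -0.29 (interval -1.05 to 0.47), and the within-library ratio of Txnrd2 to Txn2 overlapped between the groups. Txnrd1, the cytosolic reductase, averaged 5.96 ± 1.26 FPKM in IVM and 3.66 ± 0.37 FPKM in IVO samples (SD, n = 3) without overlap, and did not pass (log2FC -0.56, adjusted p = 0.114). The within-library ratio of Txnrd2 to Txnrd1 overlapped between the groups as well.

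**Figure D3:**
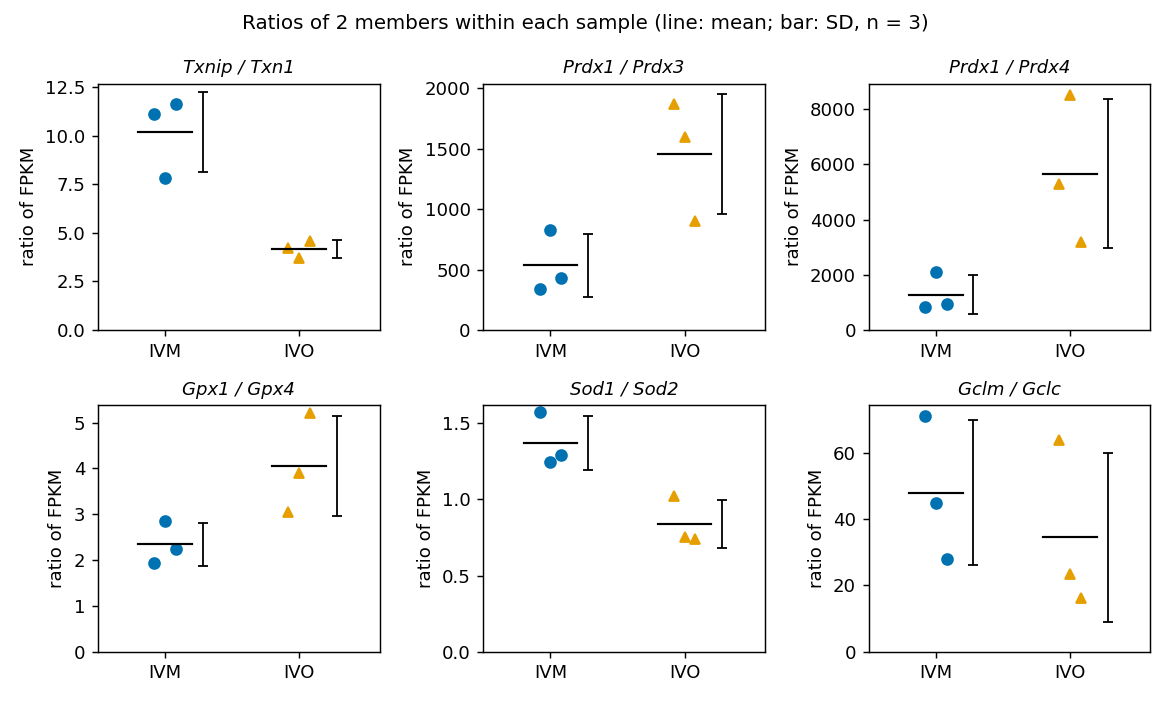
FPKM ratios of 2 members within each sample, for IVM (circles) and IVO (triangles), with the mean as a line and the SD as a bar (n = 3 per group), chosen after the values were seen and not tested. The ratios Txnip to Txn1 and Sod1 to Sod2 were lower in each IVO sample, Prdx1 to Prdx3, Prdx1 to Prdx4 and Gpx1 to Gpx4 were higher, and Gclm to Gclc overlapped.

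Glutathione synthesis and recycling. No gene of this class passed the test, and the levels of its members differed widely per length. Gclm, the modifier subunit of glutamate-cysteine ligase, had 127, 87.0 and 72.5 FPKM in the IVM and 78.4, 63.5 and 38.6 FPKM in the IVO samples (log2FC -0.68, interval -1.43 to 0.08, adjusted p = 0.176). The groups overlapped. Gclc, the catalytic subunit of the same enzyme, averaged 2.11 ± 0.43 FPKM in IVM and 2.103 ± 0.78 FPKM in IVO samples (SD, n = 3).

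The ratio of Gclm to Gclc was therefore 27.9 to 71.2 in the IVM and 16.3 to 63.7 in the IVO samples. Gss, the glutathione synthetase that completes the tripeptide, averaged 2.02 ± 0.80 and 2.01 ± 0.71 FPKM in IVM and IVO samples (SD, n = 3). Gsr, the reductase that regenerates glutathione with NADPH, was at 0.23 to 0.68 FPKM over the 6 samples.

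Glutaredoxins. These small enzymes reduce disulfides with glutathione, and none of the 3 passed. Glrx, the cytosolic form and the highest of its class, had 276, 206 and 204 FPKM in the IVM and 212, 218 and 181 FPKM in the IVO samples, with overlap (log2FC -0.16, adjusted p = 0.588). Glrx3, a monothiol form that takes part in iron-sulfur cluster traffic, averaged 4.66 ± 1.49 FPKM in IVM and 1.91 ± 0.69 FPKM in IVO samples (SD, n = 3). All IVO values were the lower, and the adjusted p was 0.0544 (log2FC -0.96). Glrx2, mainly mitochondrial, was at 0.81 to 1.88 FPKM in IVM and 0.89 to 1.33 FPKM in IVO samples.

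Glutathione transferases. This class held one of the most abundant members, which did not pass, and a scarce one that was a DEG. Mgst3 had 1058, 1133 and 984 FPKM in the IVM and 1052, 1106 and 1204 FPKM in the IVO samples (log2FC 0.08, interval -0.24 to 0.41). Gsto1, an omega-class transferase that also reduces dehydroascorbate, had 4.39, 3.44 and 5.68 FPKM in the IVM and 0.88, 1.36 and 1.63 FPKM in the IVO samples. It was a DEG (log2FC -1.26, SE 0.26, adjusted p = 0.0155) on 14.6 to 27.2 inferred fragments in an IVO sample, and its adjusted p was 0.0511 without IVO sample 1.

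Gstp1, of the pi class, averaged 122 ± 26.3 and 106.5 ± 10.5 FPKM in IVM and IVO samples (SD, n = 3), but its reads can be shared with near-identical copies. Gstp2 (97.9% identical over 707 bases) was listed at 11.4 to 19.0 FPKM in IVM and 0.99 to 10.5 FPKM in IVO samples, and the pseudogene Gstp-ps at 12.6 to 19.3 and 7.85 to 12.9 FPKM, so the level of Gstp1 is uncertain to that extent. Gsta4, which conjugates lipid aldehydes, averaged 30.7 ± 12.2 and 23.0 ± 2.79 FPKM, and Mgst1, another microsomal form, 2.93 ± 1.55 and 5.96 ± 3.74 FPKM in IVM and IVO samples (SD, n = 3). The interval of the log2FC of Mgst1, from -0.43 to 1.93, reached further above 0 than that of any other member. Gstm1, of the mu class, did not exceed 0.33 FPKM.

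NRF2, Nqo1 and the heme oxygenases. The transcription factor gene and its target Nqo1 were each somewhat higher in every IVO sample without passing the test. They were the 2 tested members wholly higher in IVO (6.1%, against 9.62% of all tested genes). Of the 6 tested members with the promoter motif given below, 4 had a negative log2FC and 2 a positive one. The activity of NRF2 was not measured. Nfe2l2 had 4.58, 4.07 and 5.19 FPKM in the IVM and 6.15, 6.07 and 5.32 FPKM in the IVO samples (log2FC 0.29, interval -0.18 to 0.76, adjusted p = 0.348). Nqo1, which reduces quinones, had 32.6, 34.1 and 32.9 FPKM in the IVM and 40.9, 37.9 and 35.8 FPKM in the IVO samples (log2FC 0.20, interval -0.20 to 0.59, adjusted p = 0.447). Keap1, the adaptor that marks NRF2 for degradation, was at 0.28 to 0.87 FPKM over the 6 samples.

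Heme oxygenases break down heme, and the constitutive and the inducible form stood far apart. Hmox2, the constitutive form, had 9.99, 7.19 and 6.88 FPKM in the IVM and 3.15, 3.32 and 3.11 FPKM in the IVO samples. It was a DEG (log2FC -1.09, SE 0.22, adjusted p = 0.0135). Its adjusted p stayed under 0.05 in all 6 fits that left out a sample and was 0.0769 with quantile normalization, and its log2FC was -0.82, -0.81 and -0.61 under the 3 scalings, short of the fold threshold. Hmox1, the inducible form, was at 0.12 FPKM or below in each sample.

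The core of the antioxidant response element, TGACNNNGC, was searched on both strands in the RefSeq promoter windows of GRCm38.p6, which run from 250 bases before to 50 bases after a gene's start. It was present in 7 of the 35 members with a window (20%), beside 14% of 27025 genes. The 7 were Gclm, Mgst1, Nfe2l2, Prdx1, Sod1, Srxn1 and Txnrd1. None of the 9 members with an adjusted p under 0.05 was among them, but not every member has a window and no link was tested. Of the 7, the 6 that were tested had a median log2FC of -0.23. The windows of the 4 that had the highest level of their class are shown as the gene's strand reads, with the match in capitals.
Prdx1 (chr4:116685458-116685482 of GRCm38.p6, plus strand): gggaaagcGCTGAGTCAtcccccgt
Gclm (chr3:122245415-122245439 of GRCm38.p6, plus strand): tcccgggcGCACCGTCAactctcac
Sod1 (chr16:90220698-90220722 of GRCm38.p6, plus strand): caaggtggGCGTGGTCAgactcagg
Nfe2l2 (chr2:75704887-75704911 of GRCm38.p6, minus strand): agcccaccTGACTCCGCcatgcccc

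The match starts 133 bases before the gene's start in Prdx1, 134 in Gclm, 56 in Sod1 and 240 in Nfe2l2, and it reads on the opposite strand in Prdx1, Gclm and Sod1. A match of letters describes the window only, and binding was not measured.

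Methionine sulfoxide reductases and Park7. Of the genes for the enzymes that repair oxidised methionine, Msra was a DEG lower in IVO, and Msrb1 had the most negative log2FC of all members without passing. Msra, which reduces the S form and had the highest level of the class, had 24.0, 35.8 and 19.96 FPKM in the IVM and 10.2, 9.53 and 10.5 FPKM in the IVO samples. It was a DEG (log2FC -1.28, SE 0.25, adjusted p = 0.0120). Its adjusted p stayed under 0.05 in all 6 fits that left out a sample and was 0.0691 with quantile normalization, and its log2FC was -0.98, -0.96 and -0.77 under the 3 scalings, short of the fold threshold. Msrb3, another reductase of the R form outside the 42, was singled out after its values were seen. It averaged 501 ± 139 FPKM in IVM and 523 ± 238 FPKM in IVO samples (SD, n = 3), far above Msra and Msrb1 per length, and did not pass (log2FC -0.04, interval -1.002 to 0.93, adjusted p = 0.961).

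Msrb1, the selenocysteine enzyme for the R form, had 33.3, 21.6 and 18.1 FPKM in the IVM and 0.62, 12.5 and 9.64 FPKM in the IVO samples. Every IVO value was the lower, but IVO sample 1 stood far below the other two. The log2FC was -2.001 (SE 0.76, adjusted p = 0.103), and -1.04 without that sample. Park7, encoding the peroxide-sensing protein DJ-1, averaged 7.87 ± 1.29 FPKM in IVM and 6.48 ± 0.63 FPKM in IVO samples (SD, n = 3), with a log2FC of -0.24.

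**Figure D4:**
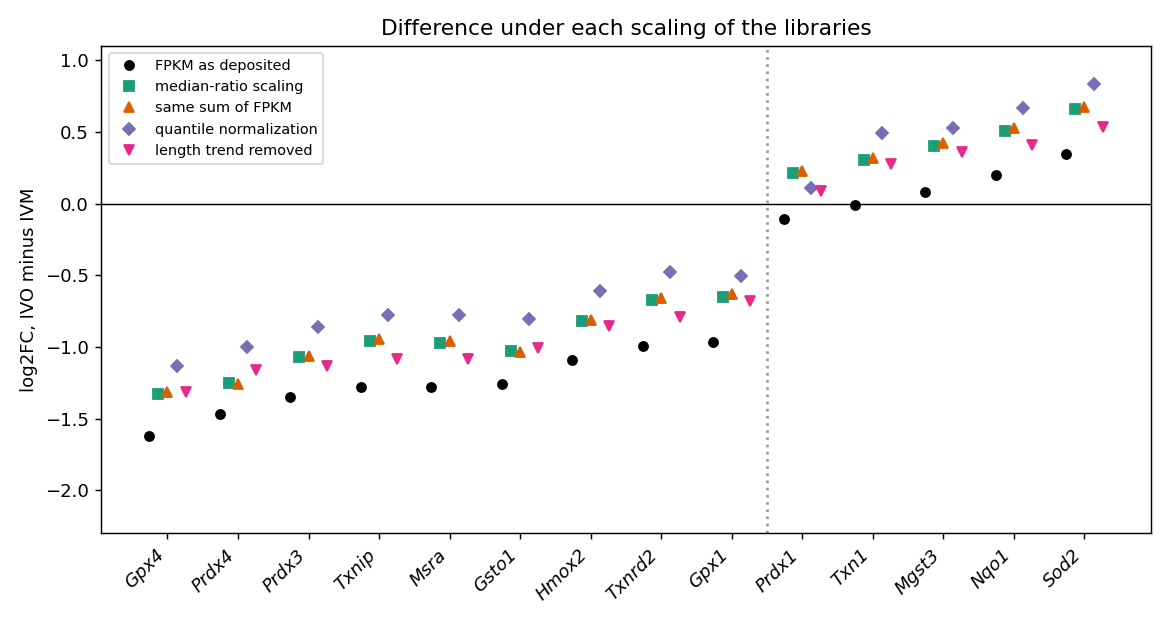
The log2FC (IVO minus IVM) of the 9 members with an adjusted p under 0.05, left of the dotted line, and of 5 other members, as deposited (circles) and under 4 alternatives that rescale the libraries or remove the trend with gene length. The 9 stay below 0 under each, while Prdx1 and Txn1 move from just below to above 0.

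Beside the members, 60 further symbols of redox metabolism (NADPH supply, iron storage, other glutathione transferases, sestrins and methionine sulfoxide reductases) gave 61 genes (Nnt has 2 identifiers, of which 1 was tested), and 44 were tested. Of these, 8 were DEGs lower in IVO (18.2%, against 17.9% of all tested genes) and 1 was a DEG higher (against 0.606%). Their median log2FC was -0.31. Idh2, the mitochondrial isocitrate dehydrogenase that makes NADPH, had 111, 110 and 78.7 FPKM in the IVM and 5.76, 4.56 and 0.20 FPKM in the IVO samples (log2FC -4.80, SE 0.62, adjusted p = 0.00322). Nnt, which also makes NADPH in mitochondria, had 307, 161 and 131 FPKM in the IVM and 82.4, 56.4 and 56.1 FPKM in the IVO samples (log2FC -1.53, SE 0.34, adjusted p = 0.0191). NADPH is what the glutathione and thioredoxin reductases consume, and NADPH itself was not measured. Other genes for NADPH supply, singled out after their values were seen, did not follow. Idh1 was higher in every IVO sample without passing (log2FC 0.55, adjusted p = 0.052). G6pdx (log2FC 0.12) and Me1 (log2FC -0.57) overlapped between the groups and did not pass.

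Gstm5, a mu-class transferase far more abundant than Gstm1 per length, had 1404, 1618 and 1174 FPKM in the IVM and 337, 248 and 410 FPKM in the IVO samples (log2FC -2.09, SE 0.23, adjusted p = 0.00191). The ferritin chains, which store iron, moved in opposite directions. Ftl1, the light chain, had 215, 163 and 209 FPKM in the IVM and 71.3, 38.4 and 66.1 FPKM in the IVO samples (log2FC -1.76, SE 0.27, adjusted p = 0.00564). Fth1, the heavy chain, which oxidises iron, had 51.2, 26.7 and 35.3 FPKM in the IVM and 195, 82.8 and 92.9 FPKM in the IVO samples (log2FC 1.63, SE 0.38, adjusted p = 0.0227). Idh2, Gstm5 and Ftl1 passed in each of the 17 alternatives. The adjusted p of Fth1 was 0.0812 without IVM sample 2 and 0.0755 without IVM sample 3, and that of Nnt was 0.0519 to 0.0586 without IVM sample 2 or IVO sample 2 or 3.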

How the data were processed

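RNA-seq (SMART-Seq v4 cDNA, Nextera XT libraries) had been done on 6 pools of MII oocytes, 3 IVM and 3 IVO, grouped by the sample titles. Per the study's methods and the submitters' processing notes, the authors trimmed read pairs (SeqPrep, Sickle), mapped them with HISAT2 2.1.0 on GRCm39, estimated abundance with RSEM 1.3.3 and tested counts with DESeq2 1.24.0. The deposited FPKM per gene and sample was used here, with 6493 loci assembled from the reads among the rows. FPKM divides by library size, so levels are relative to each library, and RSEM shares reads among near-identical copies. Deposited group means, lengths and KEGG annotations were not tested.

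FPKM are not counts, so limma 3.58.1 (R 4.3.3; lmFit, eBayes with trend, group alone) was run on log2(FPKM + 1), over 18818 genes averaging 1 FPKM or more, two-sided, with Benjamini-Hochberg adjustment over all of them. Exact permutation of 3 against 3 samples gives p of 0.1 at best. Whether a pool used animals of its own is not stated beyond the methods' term for replicates, and p-values measure the spread between pools. Depth was inferred from genes with 1 annotated transcript, in which 58.5% to 64.0% of values worth up to 6 fragments were whole within 0.1 fragments. Amplified fragments are not independent molecules, so floors cover counting error only. Copies were sought with BLAST 2.17.0 (Python 3.11.15).

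The members and lists were chosen with earlier results of these data known. Every member may be named. Values in each sample are given for members with an adjusted p under 0.05 or the highest mean of their class, and of the further lists for the called genes with the 4 most negative and 4 most positive log2FC. Cat, Msrb1, Gpx6, Msrb3 and the ratios were chosen for per-sample values after they were seen. Alternatives tried were no filter or a mean of at least 5 FPKM, a pseudocount of 0.1, median-ratio, same-sum and quantile scaling, no trend in eBayes, a factor for the replicate number, removal of the trend with gene length (lowess, span 0.3) without and with that factor, Ensembl genes only, and leaving out each sample.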

Additional observations from a re-analysis of the deposited data

How the results depend on the processing

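Under median-ratio scaling, libraries of the same sum and quantile normalization, 3, 3 and 1 members were DEGs lower in IVO in place of 7. Of the further redox genes, 5, 5 and 3 were DEGs lower in IVO in place of 8. The share of all tested genes fell as well, to 11.3%, 11.3% and 8.4% in place of 17.9%. With the length trend removed, the further redox genes gave 5 DEGs lower and the selenoprotein list 2 higher in place of 1. At an adjusted p under 0.05 alone, quantile normalization left 2 of 9 members lower (against 10.7% of all tested genes). It gave 5 members higher (against 14.8%) in place of 0, and the same sum gave 1 higher (against 5.76%). Further redox genes higher in IVO numbered 3 with quantile normalization and 0 without a filter, in place of 1. The median log2FC of the members turned from -0.29 to 0.030 (median-ratio), 0.045 (same sum), 0.15 (quantile) and 0.040 (length trend removed, also with the replicate block). The cause was not tested. Other shares of all tested genes under the alternatives are not given here. A change in a count below or above therefore cannot be read as particular to these lists.

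Leaving out 1 sample gave 4 to 8 members as DEGs lower in IVO, with 4 without IVM sample 1, and 5 to 8 members lower at an adjusted p under 0.05, with 5 without IVM sample 1 or IVO sample 1 or 2. It gave 5 to 8 further redox genes lower, with 5 without IVO sample 2, and 0 to 1 higher, with 0 without IVM sample 2 or 3. The selenoprotein list gave 0 to 1 lower, with 1 without IVM sample 2, and 0 to 1 higher, with 0 without sample 1 or 2 of either group. The members' median log2FC ranged from -0.41 to -0.17.

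Same-numbered IVM and IVO samples did not deviate together (r of -0.06, -0.02 and -0.11), so the numbers were not taken to pair the samples. With the replicate block, 6 members were DEGs lower and the selenoprotein list had 0 higher. With that block and no length trend, 1 member and 3 further redox genes were DEGs lower in IVO, 1 member was lower at an adjusted p under 0.05, and 0 selenoprotein genes were DEGs higher. No member that passed in either fit changed sign under any alternative, while 9 uncalled members changed sign under median-ratio and 12 under quantile scaling. Members below 1 FPKM were not tested, and depth limits what can be said of them.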
